A study of Rattus norvegicus with 5 samples.

Results

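Aldehyde dehydrogenases oxidise aldehydes to carboxylic acids with NAD(P)+ as the electron acceptor. A set of 10 of these genes was followed here through the RefSeq accession of their array probes, out of 15442 gene symbols named on the arrays and 27451 genes and unnamed probes in all. They were Aldh1a1, Aldh1a2, Aldh1a3, Aldh1l1, Aldh2, Aldh3a1, Aldh3a2, Aldh6a1, Aldh7a1 and Aldh9a1, read by 11 probes. Where a gene had several probes, the one with the highest mean log2 signal over the arrays stood for it. Aldh1a1 and Aldh3a1 were chosen by measured values, their high signal in the irradiated primary tumour, so every value of these genes that involves that tumour is given as a description with no test.

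The tumours were grown from the rat glioma line C6-L as xenografts in BALB/c nu/nu nude mice, which lack a thymus and mature T cells but keep macrophages, natural killer cells and B cells. The host age is given as 6 weeks for every sample. RNA came from 3 metastatic lung nodules and 1 γ-irradiated primary tumour, both kinds with a time point of 6 weeks after γ-irradiation, and from 1 non-irradiated primary tumour with a time point of 6 weeks after the xenograft. Each sample was hybridised to 1 single-colour array, and nothing in the labels ties the nodules to separate mice, so p-values reflect the spread among these arrays, which may be technical.

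The family serves several branches of metabolism. Aldh1a1, Aldh1a2 and Aldh1a3 turn retinaldehyde into retinoic acid, the ligand of the retinoic acid receptors, and aldehyde dehydrogenase activity is widely used to mark stem-like tumour cells. Aldh3a1, Aldh3a2 and Aldh2 clear aldehydes from lipid peroxidation, fat and alcohol, while the remaining members close steps of folate, amino acid and carnitine metabolism.

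All 5 arrays lay on 1 slide, the nodules in one row and the primaries in another, so row and group cannot be told apart. Between 69.8 and 73.5% of spots for genes passed as well above background, 0 were saturated, and arrays correlated at 0.970 to 0.992 over probes. Levels are log2 signals from which the 75th percentile of the array was subtracted, so a level belongs to its own probe and is compared only between arrays. Precision is limited by how few arrays there are: with 1 array per primary, the spread in every test comes from the 3 nodules. Rat probes were used on tumours grown in mice, so the species of origin of a signal cannot be told apart, nor can fewer cells of a type and less RNA per cell. Of the glial markers, Gfap and Olig2 were well above background on 0 arrays, while Nes, Vim, S100b and Pdgfra were so on all 5.

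Of the 10 members, 9 were well above background on all 5 arrays. Aldh1a2, the main retinoic acid synthase of the embryo, was the exception, with 0 arrays well above background, and it was not tested. Its probe therefore gives only an upper bound on each array, and the range of its values has no order.

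**Figure D1:**
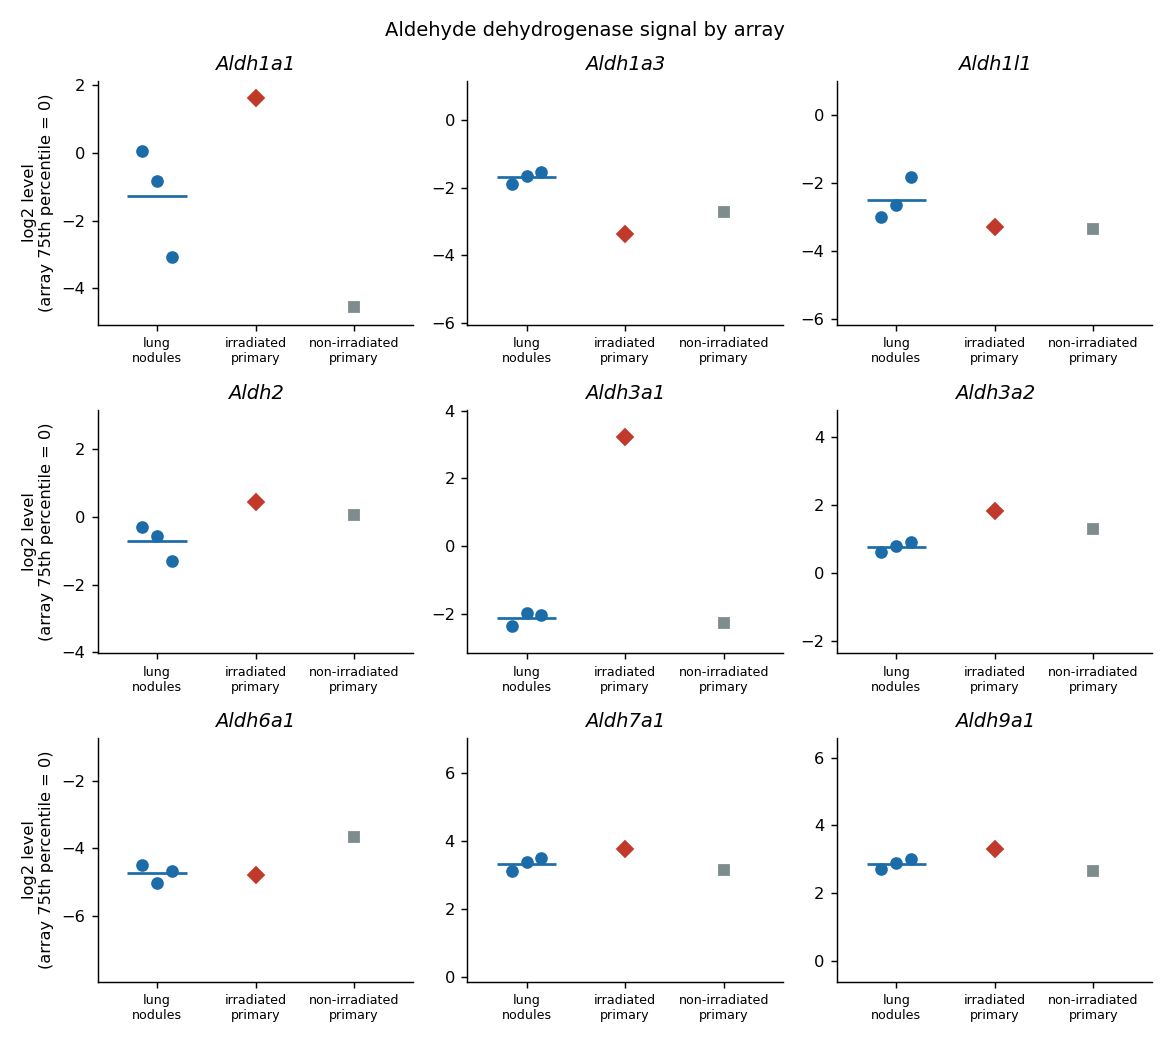
Log2 level (array 75th percentile = 0) of the 9 aldehyde dehydrogenases measured, with 3 lung nodules (circles, line at their mean), the irradiated primary (diamond) and the non-irradiated primary (square); every panel spans the same number of log2 units. Aldh3a1 stands at 3.23 in the irradiated primary against -2.36 to -1.98 in the nodules and -2.25 in the non-irradiated primary, and Aldh1a1 differs between all kinds of sample.

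Aldh3a1, which oxidises aromatic and medium-chain aldehydes and is abundant in the cornea, was high in the irradiated primary alone. Its log2 level was -2.36, -1.98 and -2.02 in nodules 1, 2 and 3, 3.23 in the irradiated primary and -2.25 in the non-irradiated primary. The nodules and the non-irradiated primary overlapped, and the irradiated primary lay far above all of them. The irradiated primary exceeded the non-irradiated primary by 5.49 on the log2 scale, a 44.9-fold difference that ranked 25th from the top among 18442 features compared, and the nodule mean minus the irradiated primary was -5.35. The 2 spots of the Aldh3a1 probe differed by at most 0.15 on any array. In the comparison that did not enter the choice of this gene, the nodules differed from the non-irradiated primary by 0.13 on the log2 scale (SE 0.21, 95% interval -0.42 to 0.68, limma adjusted p = 0.688), with 1 of 3 nodules below that primary.

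Aldh1a1, a cytosolic retinaldehyde dehydrogenase, was likewise highest in the irradiated primary, but the other samples differed from each other. Its log2 level was 0.061, -0.83 and -3.07 in nodules 1, 2 and 3, 1.61 in the irradiated primary and -4.57 in the non-irradiated primary. All 3 nodules lay between the primaries, spread over 3.13 log2 units (mean -1.28 ± 1.61, SD, n = 3). The irradiated primary exceeded the non-irradiated primary by 6.17, a 72.2-fold difference that ranked 16th from the top. The nodule mean minus the irradiated primary was -2.89, between -3.56 without nodule 1 and -1.99 without nodule 3. Against the non-irradiated primary, the nodules were higher by 3.28 on average (SE 1.22, 95% interval 0.11 to 6.46), all 3 above it, but the difference did not pass the test over all features (limma adjusted p = 0.127). It passed without nodule 1 (2.61, adjusted p = 0.0440) and without nodule 3 (4.18, adjusted p = 0.0495) but not without nodule 2 (3.06, adjusted p = 0.255). Without nodule 2, limma called 0 features in either comparison (2690 against the irradiated and 4987 against the non-irradiated primary had an unadjusted p below 0.05), so a call lost there is not particular to its gene.

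Among all features, 9.22% had a range of at least 1 log2 unit over the nodules, and 3 of the 9 measured members did, namely Aldh1a1, Aldh1l1 and Aldh2. Some markers of lung cell types were, like Aldh1a1, lowest among the nodules in nodule 3, and other markers of the same lists changed little. Scgb1a1, the secretoglobin of club cells, stood at 4.11, 3.09 and -5.27 in nodules 1, 2 and 3, at -5.41 in the irradiated primary and at -5.27 in the non-irradiated primary. The club cell cytochrome Cyp2f4 stood at -0.88, -0.38 and -5.18 in nodules 1, 2 and 3, and was not well above background in either primary. Over 9 airway markers measured of 12 listed, the log2 of the summed signal was 4.23, 3.33 and -1.52 in nodules 1, 2 and 3, 0.16 in the irradiated primary and -1.06 in the non-irradiated primary. In nodules 1 and 2 that sum rested mostly on Scgb1a1. Tekt1 was well above background on 0 arrays, and Tekt4, a ciliary gene, stood at -4.29 to -3.54 in the nodules, -0.34 in the irradiated primary and -4.98 in the non-irradiated primary. Bpifa1, another airway gene, stayed between -4.28 and -4.26 in the nodules, and Krt15 between -4.94 and -4.62. Over 8 alveolar markers measured of 12 listed, the summed log2 signal was 6.28, 5.53 and 5.26 in nodules 1, 2 and 3, 4.86 in the irradiated primary and 5.35 in the non-irradiated primary. Cav1, the brightest of these, stood at 4.79 to 5.14 in the nodules, 4.30 in the irradiated primary and 4.84 in the non-irradiated primary. Cav1 thus carried much of that sum. Pdpn stayed between 3.36 and 3.40 in the nodules, and Sftpc stood at -1.04, -3.65 and -3.62 in nodules 1, 2 and 3. Over 4 endothelial markers measured of 10 listed, the summed log2 signal was 2.01, 1.08 and 0.37 in nodules 1, 2 and 3, -0.015 in the irradiated primary and -0.37 in the non-irradiated primary. The endothelial Tek, Tie1, Emcn and Cldn5 were well above background on 0 arrays. Among single genes, the alveolar Sftpd, a surfactant protein, had levels of 4.46 in nodule 1, 2.27 in nodule 2 and -6.00 in nodule 3, while the endothelial Pecam1 had 0.99, -0.0087 and -0.77 in the same order. Nodule 3, where Aldh1l1 was highest and Aldh2 lowest, stood apart in cardiac muscle markers. Over 6 of these measured of 8 listed, the summed log2 signal was 2.40, 1.47 and 5.48 in nodules 1, 2 and 3, 2.45 in the irradiated primary and 2.67 in the non-irradiated primary. The part of these cell types in the nodule values of Aldh1a1, Aldh1l1 and Aldh2 was not tested.

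**Figure D2:**
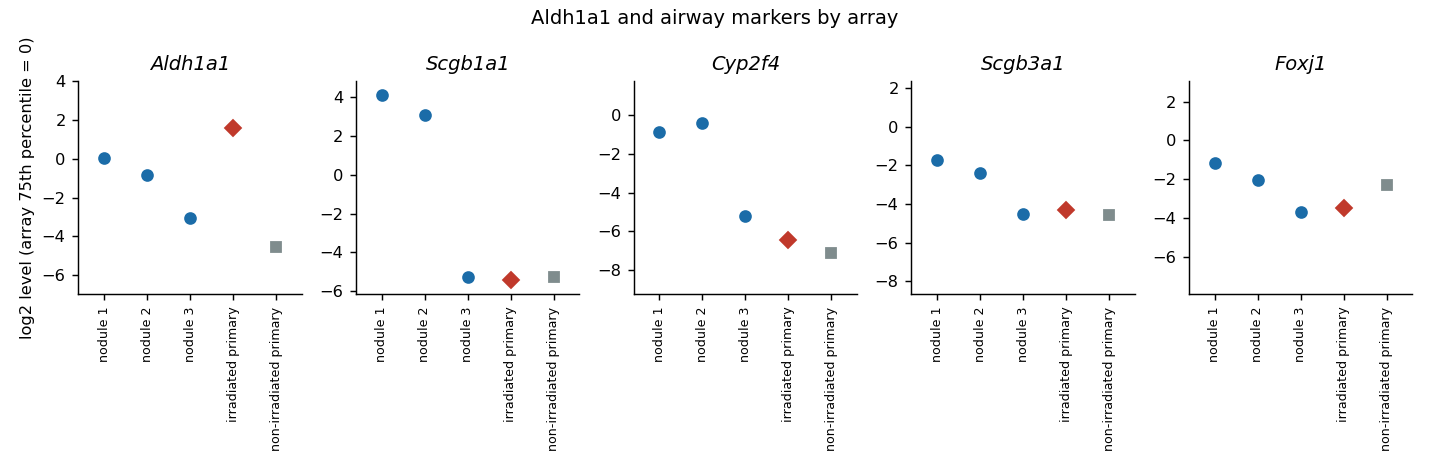
Log2 level (array 75th percentile = 0) of Aldh1a1 and 4 airway markers on each array; every panel spans the same number of log2 units and the levels of different probes are not comparable. Aldh1a1 and Scgb1a1 are both lowest among the nodules in nodule 3, while in the irradiated primary Aldh1a1 stands at 1.61 and Scgb1a1 at -5.41.

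Muscle and some other cell type markers set the primaries apart as well. Over 17 skeletal muscle markers measured of 21 listed, the summed log2 signal was 2.48 to 2.86 in the nodules, 7.45 in the irradiated primary and 5.33 in the non-irradiated primary. By limma, 14 of the 17 were lower in the nodules than in the irradiated primary, beside 2.81% of all features. In a nodule, 3 to 6 of the 17 were not well above background. Myh4, Mybpc1 and Myh2 were above it in no nodule and entered the fit through the primaries. That fixes their direction, so their calls are no test. At least 2-fold higher in the irradiated primary were 3 of 3 adipocyte, 4 of 11 macrophage, 3 of 7 fibroblast or mesothelial and 3 of 5 erythroid markers. At least 2-fold lower were 0, 1, 1 and 1 in that order, beside 9.30% higher and 7.13% lower among all features. In the non-irradiated primary, 2 of the 3 adipocyte markers were not well above background. The part of muscle and of these other cell types in the Aldh3a1 and Aldh1a1 values was not tested. Of the keratinocyte markers, Krt1, Ivl and Dsg3 were well above background on 0 arrays. The summed log2 signal of the 3 measured markers of 12 listed was -3.17 to -2.63 in the nodules, -3.99 in the irradiated primary and -4.60 in the non-irradiated primary. In each primary 2 of the 3, Krt5 and Dmkn, were not well above background. They were measured through the nodules alone, so the order of these sums is no result.

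Aldh1a3, the third retinaldehyde dehydrogenase, ran the other way. Its log2 level was -1.90, -1.66 and -1.54 in the nodules, -3.36 in the irradiated primary and -2.73 in the non-irradiated primary. The nodules did not overlap either primary. Aldh1a3 rose by 1.66 in the nodules over the irradiated primary (SE 0.22, limma adjusted p = 0.0358) and by 1.03 over the non-irradiated primary (SE 0.22, limma adjusted p = 0.0390), higher in 3 of 3 nodules each time. These comparisons share the nodules. The calls were lost without nodule 2 (1.64, adjusted p = 0.172, and 1.01, adjusted p = 0.144) and without nodule 3 (1.59, adjusted p = 0.0843, and 0.95, adjusted p = 0.0927). Scaling to the array median ended both calls too (1.76, adjusted p = 0.0541, and 1.05, adjusted p = 0.0652). The adjusted p ranged from 0.0257 to 0.0541 and from 0.0360 to 0.0652 over 8 processing settings, all with the same direction.

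Aldh3a2, the fatty aldehyde dehydrogenase, is the next protein-coding gene beside Aldh3a1 on rat chromosome 10, with 0 other protein-coding genes between them. Its log2 level was 0.62, 0.81 and 0.91 in the nodules, 1.83 in the irradiated primary and 1.29 in the non-irradiated primary. All 3 nodules lay below both primaries. Aldh3a2 fell by 1.06 in the nodules relative to the irradiated primary (SE 0.16, limma adjusted p = 0.0457), beside a difference of -5.35 in its neighbour. Relative to the non-irradiated primary the difference was -0.51 (SE 0.16, adjusted p = 0.0881). The call against the irradiated primary was lost without nodule 2 (-1.07, adjusted p = 0.182), without nodule 3 (-1.12, adjusted p = 0.0946), with array median scaling (-0.97, adjusted p = 0.115) and with the mean of both probes (-0.87, adjusted p = 0.0754), and it held in 3 of 8 processing settings. The second, dimmer Aldh3a2 probe had the same sign, with a difference of -0.68 between nodules and irradiated primary. On the other side of Aldh3a1, Usp22 differed by -0.32 in the same comparison (limma adjusted p = 0.429), and the next measured gene, Map2k3, by -0.13 (adjusted p = 0.860).

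The bases before the start of 3 of these genes are shown because their transcripts differed between the tumours in different ways, Aldh1a1 highest in the irradiated primary, Aldh1a3 lowest there, and Aldh3a2 as the neighbour of Aldh3a1. The sequences are from RefSeq on build GRCr8, 250 bases each, 5′ to 3′ on the strand of the gene, at chr1:227537370-227537619 (+), chr1:129427644-129427893 (-) and chr10:46448336-46448585 (-). Capitals mark the letters CCAAT, the CCAAT box, and GCGTG, the core of the element bound by the aryl hydrocarbon receptor, searched on both strands.
Aldh1a1: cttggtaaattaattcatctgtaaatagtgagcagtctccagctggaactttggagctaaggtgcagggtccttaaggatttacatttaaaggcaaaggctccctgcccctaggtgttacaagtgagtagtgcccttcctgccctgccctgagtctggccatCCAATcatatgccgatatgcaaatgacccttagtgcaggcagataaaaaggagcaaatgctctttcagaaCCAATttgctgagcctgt
Aldh1a3: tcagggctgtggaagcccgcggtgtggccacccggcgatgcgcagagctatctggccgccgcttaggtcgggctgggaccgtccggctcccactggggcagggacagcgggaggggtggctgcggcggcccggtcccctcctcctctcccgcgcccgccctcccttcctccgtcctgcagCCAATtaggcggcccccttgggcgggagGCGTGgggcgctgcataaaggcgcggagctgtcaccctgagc
Aldh3a2: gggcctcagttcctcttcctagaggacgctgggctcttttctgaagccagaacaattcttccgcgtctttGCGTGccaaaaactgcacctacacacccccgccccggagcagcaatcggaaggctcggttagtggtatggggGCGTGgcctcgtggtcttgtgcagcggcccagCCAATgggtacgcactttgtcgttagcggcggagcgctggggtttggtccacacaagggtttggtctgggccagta
The Aldh1a1 stretch holds CCAAT at 2 places, 88 and 18 bases before the start, and no GCGTG. The Aldh1a3 stretch holds GCGTG 42 bases before the start and the Aldh3a2 stretch holds it at 180 and 108. Of the 8 members with a promoter entry, 5 held GCGTG, which 25.9% of 33469 rat promoters of this length hold, 8 held CCAAT, which 34.0% hold, and 1, Aldh1a2, held TGACNNNGC, the core of the antioxidant response element, which 10.1% hold. The Aldh1a1 stretch has a GC content of 46.4%, the Aldh1a3 stretch 73.6% and the Aldh3a2 stretch 60.0%, beside a median of 51.2% over all promoters. The 8 members ran from 46.4 to 77.2%. The shares cover every promoter entry, while each member was counted by a single entry, so they are not a matched background. A match is a description of the letters and not a binding site.

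Of the remaining members, 0 passed the test against either primary. Aldh2, the mitochondrial enzyme that clears acetaldehyde, had log2 levels of -0.30, -0.55 and -1.31 in the nodules, 0.46 in the irradiated primary and 0.069 in the non-irradiated primary. All 3 nodules lay below both primaries, nodule 3 the furthest. The difference was -1.17 against the irradiated primary (SE 0.41, 95% interval -2.25 to -0.09, limma adjusted p = 0.201) and -0.79 against the non-irradiated primary (SE 0.41, adjusted p = 0.242). Without nodule 1 both passed (-1.38, adjusted p = 0.0244, and -0.997, adjusted p = 0.0413).

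Aldh1l1, the formyltetrahydrofolate dehydrogenase and a marker of astrocytes, was highest in nodule 3. Its log2 level was -2.99, -2.66 and -1.81 in the nodules, -3.29 in the irradiated primary and -3.37 in the non-irradiated primary. All 3 nodules lay above both primaries, by 0.80 on average over the irradiated primary (SE 0.49, limma adjusted p = 0.415) and by 0.88 over the non-irradiated primary (SE 0.49, adjusted p = 0.268). The 13 glial markers measured of 16 listed held 0 calls against the irradiated primary (median 0.11), with single differences running both ways, such as -1.85 for Nes and 2.50 for Slc1a3. Against the non-irradiated primary 2 fell and 1 rose (median -0.34), beside 8.85% and 9.72% of all features.

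Aldh6a1, the methylmalonate semialdehyde dehydrogenase of valine breakdown, was the 1 member besides Aldh1a1 and Aldh3a1 that differed at least 2-fold between the primaries. Its log2 level was -4.49, -5.01 and -4.67 in the nodules, -4.80 in the irradiated primary and -3.67 in the non-irradiated primary. The irradiated primary thus differed from the non-irradiated primary by -1.13, but the spots of this probe on the array of the non-irradiated primary themselves differed by 1.41. With normexp background correction the difference was -0.61, under 2-fold. The nodules overlapped the irradiated primary (difference 0.071, SE 0.31, 95% interval -0.74 to 0.88, limma adjusted p = 0.921). They all lay below the non-irradiated primary (difference -1.05, SE 0.31, adjusted p = 0.0782). That difference passed without nodule 1 (-1.17, adjusted p = 0.0254), and it also passed in the matrix of the authors (-1.23, adjusted p = 0.0468).

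Aldh7a1, or antiquitin, of lysine breakdown, and Aldh9a1, of carnitine synthesis, had nearly the same pattern. Aldh7a1 stood at 3.11, 3.39 and 3.49 in the nodules, 3.78 in the irradiated primary and 3.14 in the non-irradiated primary. Aldh9a1 stood at 2.70, 2.89 and 3.01 in the nodules, 3.30 in the irradiated primary and 2.66 in the non-irradiated primary. For both, the nodules lay below the irradiated primary and around or just above the non-irradiated primary. The difference from the irradiated primary was -0.45 for Aldh7a1 (95% interval -0.92 to 0.02, limma adjusted p = 0.246) and -0.43 for Aldh9a1 (95% interval -0.85 to -0.02, adjusted p = 0.213).

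**Figure D3:**
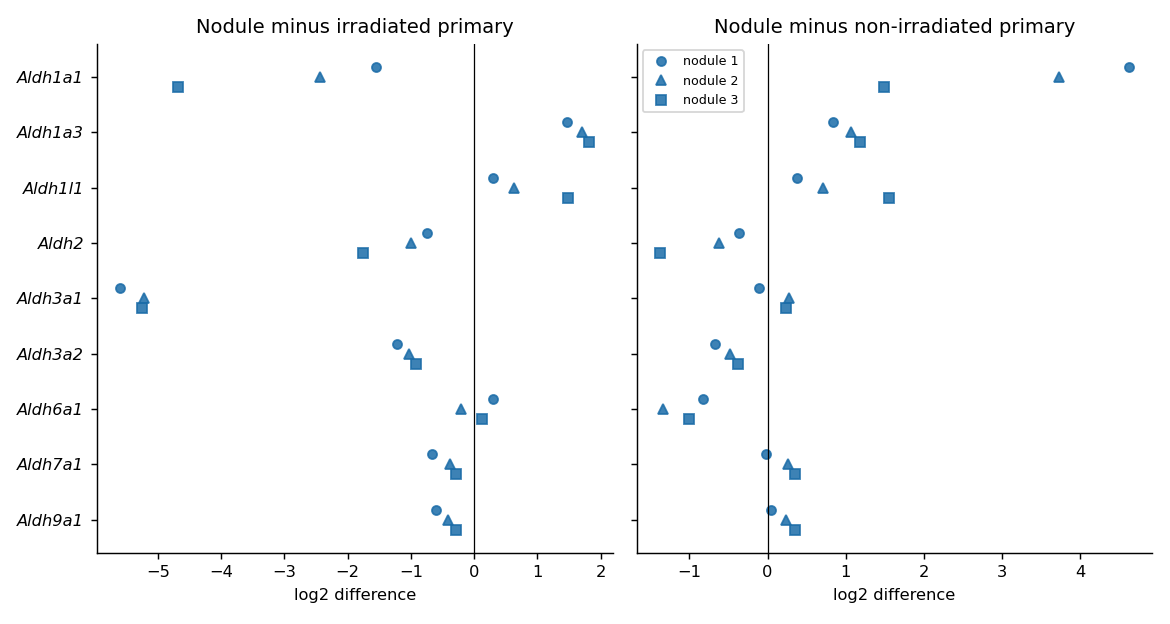
Log2 difference of each nodule from the irradiated primary (left) and from the non-irradiated primary (right) for the 9 members measured; circles, triangles and squares are nodules 1, 2 and 3, and the x axes of the panels differ. Aldh3a1 is near -5.35 on the left and near 0.13 on the right, and the nodules are widest apart for Aldh1a1.

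Against the irradiated primary, 1 of the 7 measured members other than Aldh1a1 and Aldh3a1 fell, 1 rose and 5 did not pass. Among all 18913 features tested, limma called 2.81% lower and 0.909% higher, 3.72% in all. The median difference of these 7 members was -0.43, beside 0.034 over all features. All 3 nodules lay below the irradiated primary for 6 of the 9 measured members and above it for 2, beside 31.8% and 36.2% of all features. Aldh1a1 and Aldh3a1, which the choice put there, are among the 6. Against the non-irradiated primary, 1 of the 9 rose and 0 fell, beside 9.72% and 8.85% of all features, and 1 call in 9 members stands near that background. The median difference was 0.20 over the 9 members and 0.038 over all features. The nodules lay below the non-irradiated primary for 3 members and above it for 4, beside 36.8% and 40.1%.

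Between the primaries, with 1 array each and no test, 7 of the 9 measured members were higher in the irradiated primary. Aldh1a1 and Aldh3a1, which the choice put there, are among these. Of the 7 other members, 5 were higher, beside 51.5% of all features. Among the 5, Aldh1l1 was higher by 0.075 and turned to -0.0035 with array median scaling and to -0.027 with normexp. Aldh1a1 and Aldh3a1 were at least 2-fold higher and Aldh6a1 at least 2-fold lower, beside 9.30% and 7.13% of all 18442 features compared. Without Aldh1a1 and Aldh3a1 the median difference of the 7 others was 0.39, beside 0.018 over all features, and none of them was 2-fold higher. For scale, 5.21% of features differed at least 2-fold between nodules 1 and 2, 7.04% between nodules 1 and 3 and 2.26% between nodules 2 and 3.

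**Figure D4:**
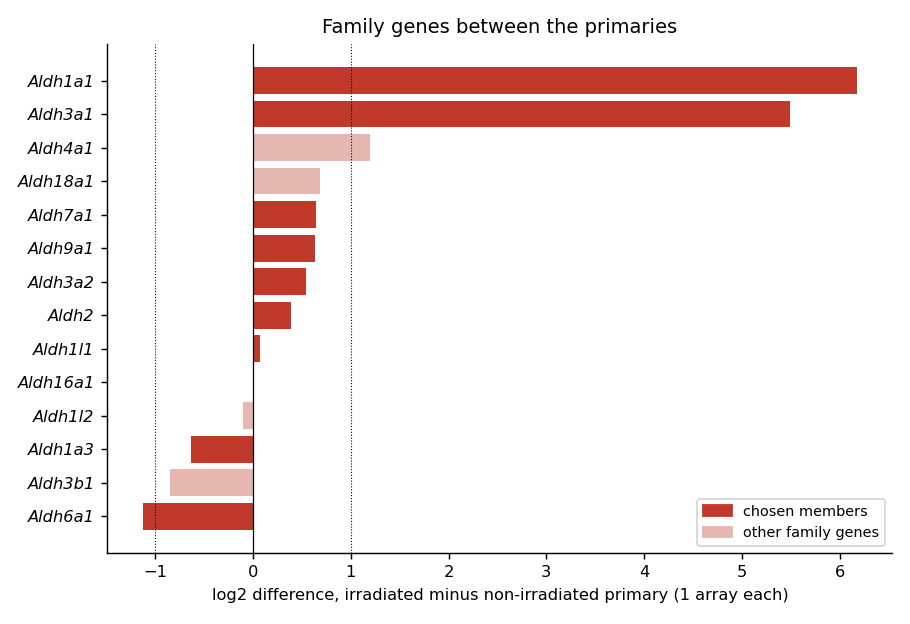
Log2 difference between the irradiated and the non-irradiated primary (1 array each) for the 9 chosen members measured and 5 other genes of the family; dotted lines mark a 2-fold difference. Aldh1a1 at 6.17 and Aldh3a1 at 5.49 stand apart from the other genes, which lie between -1.13 and 1.20.

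Of 11 other family genes listed, 7 had a probe and 5 were measured above background. Of the 5, 0 passed the test against the irradiated primary (median -0.15), beside 3.72% of all features. Aldh4a1, which closes proline breakdown, had the largest difference of these between the primaries, with 1.32 in the irradiated primary and 0.12 in the non-irradiated primary, and stood at 0.19, 0.51 and 0.95 in the nodules. Aldh3b1, a membrane-bound relative of Aldh3a1, was lower in the irradiated primary by a log2 difference of -0.85. Aldh3b1 also fell by 0.99 in the nodules relative to the non-irradiated primary (limma adjusted p = 0.0171), the 1 call of these 5 in that comparison. That call was lost without nodule 2 (-1.04, adjusted p = 0.0778) and without nodule 3 (-0.98, adjusted p = 0.0674).

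In the retinoid pathway around the Aldh1a genes, 21 of 25 listed genes were measured. Of these, 1 fell, 1 rose and 19 did not pass in the nodules relative to the irradiated primary (median 0.35). Among all features, 2.81% were called lower and 0.909% higher in that comparison. Cyp26b1, which breaks retinoic acid down, stood at 0.013, 0.19 and -0.070 in the nodules, 1.47 in the irradiated primary and 1.81 in the non-irradiated primary, all nodules below both primaries. It fell by 1.43 relative to the irradiated primary (SE 0.15, limma adjusted p = 0.0248). Rarb, a retinoic acid receptor whose gene is itself induced by retinoic acid, stood at -2.04, -2.08 and -2.10 in the nodules, -3.29 in the irradiated primary and -1.58 in the non-irradiated primary. Rarb was thus lowest in the irradiated primary, and it rose by 1.22 in the nodules relative to that tumour (SE 0.17, limma adjusted p = 0.0396). Both calls were lost without nodule 3, where the differences were -1.37 for Cyp26b1 (adjusted p = 0.0690) and 1.23 for Rarb (adjusted p = 0.100), and without nodule 2, where they were -1.50 (adjusted p = 0.0917) and 1.22 (adjusted p = 0.203). The Cyp26b1 call was also lost without an intensity trend (adjusted p = 0.0507) and the Rarb call with no filter on dim probes (adjusted p = 0.0536). Relative to the non-irradiated primary 2 of the 21 fell and 2 rose, near the 8.85% and 9.72% of all features. Of the 2 that fell, Cyp26a1, another retinoic acid hydroxylase, was well above background in the primaries only. It entered the fit through them, which fixes its direction, so its call is no test. Between the primaries, 18 of these genes were compared, 2 at least 2-fold higher and 4 at least 2-fold lower in the irradiated primary. The shares over all features were 9.30% and 7.13%. Of the 2 that were higher, Dhrs3 differed by 1.32, with 0.23 in the irradiated primary and -1.09 in the non-irradiated primary. Rxrg, a retinoid X receptor, was at least 2.98-fold higher in the irradiated primary, against a non-irradiated primary in which it was not well above background. Such a bound sets the brighter group against the lowest signal that counts as well above background on the dimmer array, or the dim signal itself if higher. Cyp26a1 differed by -2.08 between the primaries, with a level of -5.32 in the irradiated primary and -3.24 in the non-irradiated primary. The part of Aldh1a1 in the values of these retinoid genes was not tested.

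Of 22 listed genes that handle aldehydes and alcohols by other routes, 16 were measured. In the nodules relative to the irradiated primary, 3 fell, 0 rose and 13 did not pass (median -0.0024), beside 2.81% lower and 0.909% higher among all features. The glutathione transferase Gsta4, which conjugates the lipid peroxidation product hydroxynonenal, stood at -0.48, -0.070 and -0.30 in the nodules, 2.16 in the irradiated primary and 1.28 in the non-irradiated primary. Gsta4 fell by 2.44 (SE 0.19, limma adjusted p = 0.0130). Its relative Gsta1 stood between -2.44 and -1.98 in the nodules, at 0.37 in the irradiated primary and at -1.43 in the non-irradiated primary, and fell by 2.52 (SE 0.25, adjusted p = 0.0193). The aldo-keto reductase Akr1b8 fell by 0.89 (SE 0.12, adjusted p = 0.0365), a call lost with array median scaling (-0.80, adjusted p = 0.0901) and without an intensity trend (adjusted p = 0.0870). For all 3 genes every nodule lay below the irradiated primary, and the 3 calls were lost without nodule 3 (differences -2.43, -2.59 and -0.92, adjusted p = 0.0572, 0.0588 and 0.0707) and without nodule 2 (differences -2.55, -2.60 and -0.85, adjusted p = 0.0622, 0.0905 and 0.180). Akr7a3, an aflatoxin aldehyde reductase, was at least 3.53-fold lower in the irradiated than in the non-irradiated primary and was well above background on 1 array.

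Aldh3a1 is known in rat liver as a target of the aryl hydrocarbon receptor, a sensor of dioxin-like compounds. Of 7 listed genes of that response, 3 were measured, and Cyp1a1 and Cyp1a2, its classic targets, were well above background on 0 arrays. Cyp1b1 was well above background in the irradiated primary only, and so entered the fit through that array, which fixes the direction of its difference and leaves no test to report. It was at least 2.44-fold lower in the nodules than in the irradiated primary, and at least 1.71-fold higher in the irradiated than in the non-irradiated primary. With normexp background correction both differences were smaller than these bounds, at -0.51 and 0.22 on the log2 scale. The receptor itself, Ahr, was higher by 1.02 in the irradiated than in the non-irradiated primary. Among 13 listed NRF2 genes of the antioxidant response, 12 were measured and 0 passed against the irradiated primary (median -0.51), beside 3.72% of all features. Haem oxygenase, Hmox1, stood at 1.53, 0.37 and 0.37 in the nodules, 2.07 in the irradiated primary and -0.20 in the non-irradiated primary. The difference of 2.27 between the primaries was the 1 of at least 2-fold among these 12, beside 9.30% of all features at least 2-fold higher. Srxn1 came next with 0.99, and Nqo1, a quinone reductase, differed by 0.57. In the nodules Hmox1 differed from the irradiated primary by -1.31 (limma adjusted p = 0.235), a difference that passed without nodule 1 (-1.70, adjusted p = 0.000646).

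**Figure D5:**
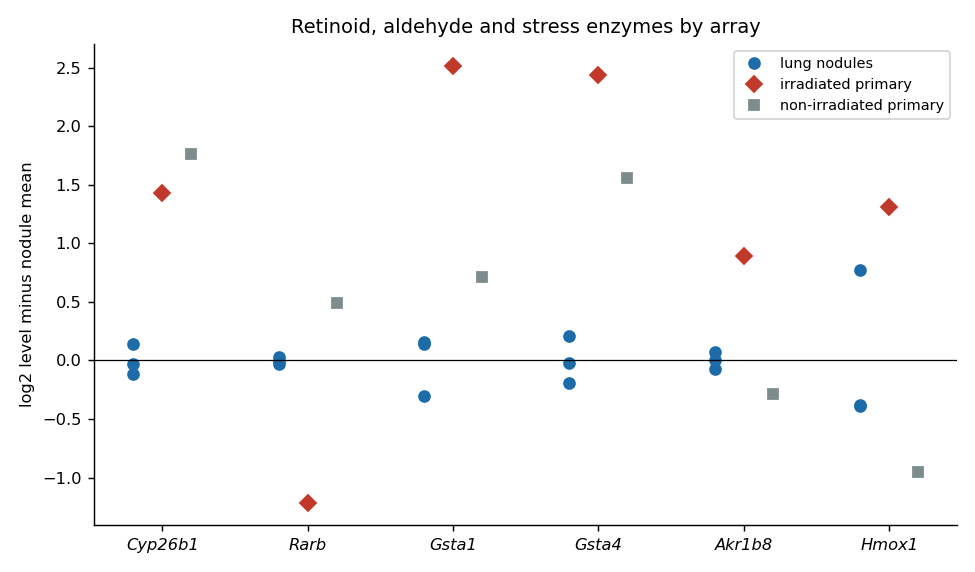
Log2 level minus the mean of the nodules for 6 retinoid, aldehyde and antioxidant genes, with nodules (circles), the irradiated primary (diamonds) and the non-irradiated primary (squares). Gsta1 and Gsta4 are higher in the irradiated primary than in every nodule by over 2 log2 units, and Rarb is lowest there.

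Folate and amino acid enzymes around Aldh1l1, Aldh6a1 and Aldh7a1 held 0 calls against the irradiated primary, beside 3.72% of all features. Measured were 10 of 14 listed folate genes (median -0.12) and 17 of 20 listed amino acid genes (median 0.058). Relative to the non-irradiated primary, 4 of the 10 folate genes rose and 0 fell, and of the 17 amino acid genes 3 rose and 2 fell, beside 9.72% higher and 8.85% lower among all features. The amino acid counts stand near that background. Mthfd1, a trifunctional folate enzyme, was higher by 1.12 in the irradiated than in the non-irradiated primary. Aass, which starts lysine breakdown upstream of Aldh7a1, was at least 3.48-fold higher in the irradiated primary, against a non-irradiated primary in which it was not well above background. Pcca, which carboxylates propionyl-CoA, was higher by 1.28.

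The genes whose pattern over the 5 arrays was most like that of Aldh3a1, by the root mean square distance between profiles centred on their own mean, were Klk4 (0.27), Poteg (0.33), Nudt16l2 (0.33), Sox14 (0.34) and Taar7h (0.35) among 11103 named genes. Sox14 was well above background on 2 arrays and the others on 1, the irradiated primary, through which they entered this comparison. The signal of that tumour also chose Aldh3a1, so the likeness is a description only. The levels of these genes on the remaining arrays are bounds, and the distances give no exact order. Nearest to Aldh1a1 were Acox2 (0.78), Pkp3 (1.07), Txk (1.08), Mettl24 (1.08) and Lhx8 (1.11), which were well above background on 1 to 4 arrays. The distance between Aldh3a1 and Aldh1a1 themselves was 1.78, and 535 genes were nearer to Aldh3a1 than Aldh1a1 was.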

How the data were processed

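RNA of the 5 tumour samples was measured on single-colour Agilent arrays. The deposited intensity values are spot signals which, per the file headers, were background-subtracted and spatially detrended within each array. The software was Agilent Feature Extraction 11.0, per the submitters' processing notes. The matrix deposited by the authors gives log2 values for 18502 probes, with columns of nearly equal distribution (largest gap between sorted columns 0.000749, each median 9.74). Its making is not given in the sources used here. Control and outlier spots were left out, spots of a probe were averaged on the log2 scale, and the 75th percentile of each array was subtracted. RefSeq accessions named 18354 of 30363 probes. A feature was tested if every array of some group had it well above background (18913, of which 11104 named). limma 3.58.1 in R 4.3.3 fitted 3 group means with an intensity trend (2 residual and 2.76 prior degrees of freedom), Benjamini-Hochberg adjusted p under 0.05, two-sided, and was tested on simulated data. Between the primaries, a log2 difference of 1 or more in size was counted, with no test. The members and gene lists were chosen with earlier results of these data known. Named were every member, the genes most like Aldh3a1 and Aldh1a1 (5 each) and, from the other family and pathway lists, genes called against the irradiated primary. Those of these lists with the largest difference between the primaries were named too. Further genes, cell type markers among them, were chosen after their values were seen because a statement turns on them. Not every called cell type marker is named. The files hold no mean spot signal, so normexp used the median. Other alternatives were array median scaling, quantile normalization, the deposited matrix, other filters and probe rules, no intensity trend and leaving out each nodule. Aldh3a1 and Aldh2 promoters are not shown. The array design uses an older rat build than the gene table, so coordinates are given only for the promoter stretches shown, on build GRCr8. Python 3.11.15 and pandas 2.3.3 read the promoters.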

Additional observations from a re-analysis of the deposited data

How the results depend on the processing

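Over all alternatives, 64 values of the 7 measured members other than Aldh1a1 and Aldh3a1 kept their direction and their side of the threshold against the irradiated primary, 11 lost a call, 1 gained one and 1 reversed. For all 9 against the non-irradiated primary, 88 kept both, 5 lost a call and 6 gained one. Between the primaries 61 differences moved by less than the SD over the nodules and 2 by more. The reversal was Aldh6a1 against the irradiated primary, -0.045 to 0.21 with 1 nodule left out. Over the processing alternatives the difference between the primaries was 5.14 to 5.49 for Aldh3a1 and 5.01 to 6.19 for Aldh1a1, the lowest values with normexp, which also left 1495 features at least 2-fold apart in place of 3030. The nodule minus irradiated primary difference of Aldh3a1 was -5.36 to -5.08. Features called against the irradiated primary numbered 704 with all nodules, 438 with array median scaling, 399 without an intensity trend and 0 to 3187 when 1 nodule was left out. Against the non-irradiated primary they numbered 3512 with all nodules and 0 to 6406 when 1 was left out. Both counts of 0 by limma came without nodule 2 (2690 and 4987 features with unadjusted p below 0.05, limma's smallest adjusted p = 0.0513 and 0.0552), where the spread rests on nodules 1 and 3 alone. Without nodule 1 there were 3187 and 6406 calls, and without nodule 3 there were 189 and 344. No call of a single gene given above, in either comparison with a primary, held without nodule 2. No paired analysis was possible because the primaries have 1 array each and no replicate number. Alternatives for genes outside the family were added after the data were seen.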
